A study of Homo sapiens with 9 samples.

Results

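The 33 nuclear genes described here encode the enzymes and factors that carry out translation inside mitochondria. They were chosen by name and comprise 16 mitochondrial aminoacyl-tRNA synthetases, SARS2 among them, 3 subunits of the glutamine amidotransferase, 4 initiation and formylation genes, 4 elongation factors, 4 release and recycling factors, and 2 genes of membrane insertion and translational activation. All 33 were found among the 78894 genes of the expression tables, and all 33 were among the 16908 genes that passed the filter on low counts. The libraries came from Hap1, a human cell line with close to a haploid genome that descends from chronic myeloid leukaemia cells. In every group the endogenous SARS2 gene was deleted (∆SARS2), and a doxycycline-inducible SARS2-1xFLAG copy was left off by growth for 6 days without doxycycline. The groups differed in a constitutive SARS2+int14-myc copy, which carried the R227Q variant, the H448L variant or the wild-type sequence (WT), with 3 libraries each. The labels do not say whether each line is a single clone, nor whether a group's 3 libraries are separate cultures, so p-values here reflect only library-to-library spread, which may be technical.

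Mitochondria make a small set of respiratory chain proteins on their own ribosomes. Aminoacyl-tRNA synthetases load each mitochondrial tRNA with its amino acid, and initiation, elongation, release and recycling factors then run the ribosome through each mRNA. SARS2 is the synthetase that loads serine, and all of these proteins are made in the cytosol and imported.

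Library totals ran from 9900892 to 12991050 counts, so 1 count was worth 0.077 to 0.101 CPM (the deposited counts scaled to a common library total). The column names in the labels carry 2 prefixes, read here as 2 submissions to a sequencing service. SDKYMR holds R227Q 1, WT 1 and WT 2. 4LJFHN holds R227Q 2, R227Q 3, all 3 H448L libraries and WT 3. Within a submission, same-group libraries differed by 1.4 to 2.23 times what sampling alone gives (chi-square per degree of freedom), and across submissions by 17.9 to 18.9 times. Submission was therefore a term in every comparison. The labels do not say whether the submissions differ in clone, passage or sequencing run, so a difference between them cannot be assigned to any of these. The libraries of the 2 submissions also differed in globin genes, which haematopoietic lines can express: HBG2 had 0 counts in each of the 3 SDKYMR libraries and 46.1 to 67.2 CPM in the 6 libraries of 4LJFHN. The summed level of 9 haematopoietic markers was 2.4 to 109 CPM in R227Q, 107 to 136 CPM in H448L and 1.64 to 107 CPM in WT. The 5 epithelial markers summed to 84.8 to 92.2 CPM in R227Q, 79.2 to 89.8 CPM in H448L and 78 to 81.5 CPM in WT, and the 6 fibroblast markers to 23.7 to 66.4, 55.7 to 67.7 and 18.9 to 54 CPM in the same order. The 5 embryonic kidney and neuronal markers summed to 42.5 to 65.2, 58.6 to 67.8 and 43.2 to 60.5 CPM in that order. With submission in the model, COL1A1 among the fibroblast markers and KRT18 among the epithelial ones were higher in R227Q than in WT (0.29 ± 0.07 and 0.15 ± 0.05, edgeR adjusted p = 0.0047 and 0.044), and no other tested marker passed against WT. The filter left 3 of the 6 fibroblast and 3 of the 5 epithelial markers to test. In R227Q 1 of these fibroblast markers was positive and 2 were negative (median −0.24, lowest −0.34). Of the epithelial ones 2 were positive and 1 was negative (lowest −0.34). The COL1A1 call was lost without WT 3, and the KRT18 call without any 1 of the R227Q or WT libraries. The KRT18 call was also lost with DESeq2, limma-voom, RLE factors or no filter on low counts. Both calls were lost without the submission term. Within SDKYMR, KRT18 stood 0.20 above WT in R227Q on the log2 scale, and within 4LJFHN 0.10. No marker was at 0 in every library, and the part of these differences in the results was not tested. In bulk RNA, fewer cells of a kind and less RNA per cell cannot be told apart.

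The 33 genes lie on 15 chromosomes, 21 of them share exon bases with another gene, and 12 of them have a protein-coding neighbour that starts on the opposite strand within 1000 bases. RefSeq promoter windows (GRCh38.p14), which run from 250 bases before to 50 bases after the annotated start, matched 30 of the 33 genes. AARS2, VARS2 and MTFMT had no entry. The median GC content of the 35 matched windows was 60.7%, against 58.7% over the 35116 windows of the table, and their median number of CpG dinucleotides was 23, against 14. Core motifs of 4 kinds were searched on both strands, none of which contains another. CCGGAAGT, a core of the ETS family to which GABPA belongs, was in a window of 7 of the 30 genes (23.3%), against 4.95% of the 27305 genes in the table. These were EARS2, GFM1, GFM2, HARS2, MTRF1L, PARS2 and TUFM. AAGATGGC, a YY1 core, was in 4 genes (13.3%, against 3.52%), namely QRSL1, SARS2, WARS2 and YARS2. GCATGCGC, an NRF1 core, was in MARS2 and YARS2 (6.67%, against 3.68%), and TGATGNAA, a C/EBP-ATF element, was in YARS2 (3.33%, against 4.46%). A match is a description of the letters and not evidence of binding. The windows below belong to SARS2, the gene that differs between the groups, and to GFM1, HARS2 and PARS2, which hold the ETS core and passed the test described further on. The windows of MRRF and LARS2, the other two genes that passed, held none of the 4 motifs. Capitals mark the motif matches on either strand, and each sequence reads 5′ to 3′ on the strand of its gene: SARS2 at chr19:38930714-38931013 (minus), GFM1 at chr3:158644277-158644576 (plus), HARS2 at chr5:140691205-140691504 (plus) and PARS2 at chr1:54764474-54764773 (minus).
SARS2: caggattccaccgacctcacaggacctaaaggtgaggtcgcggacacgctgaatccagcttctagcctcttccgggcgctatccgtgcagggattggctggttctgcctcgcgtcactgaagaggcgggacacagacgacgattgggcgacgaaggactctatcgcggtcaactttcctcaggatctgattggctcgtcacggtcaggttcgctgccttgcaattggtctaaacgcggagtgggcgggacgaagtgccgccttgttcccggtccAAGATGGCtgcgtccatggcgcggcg
GFM1: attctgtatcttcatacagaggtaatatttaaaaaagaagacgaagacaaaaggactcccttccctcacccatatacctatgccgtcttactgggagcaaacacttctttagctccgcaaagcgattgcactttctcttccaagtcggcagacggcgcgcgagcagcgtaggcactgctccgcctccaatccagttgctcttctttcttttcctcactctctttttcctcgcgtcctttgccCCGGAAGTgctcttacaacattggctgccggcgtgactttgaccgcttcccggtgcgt
HARS2: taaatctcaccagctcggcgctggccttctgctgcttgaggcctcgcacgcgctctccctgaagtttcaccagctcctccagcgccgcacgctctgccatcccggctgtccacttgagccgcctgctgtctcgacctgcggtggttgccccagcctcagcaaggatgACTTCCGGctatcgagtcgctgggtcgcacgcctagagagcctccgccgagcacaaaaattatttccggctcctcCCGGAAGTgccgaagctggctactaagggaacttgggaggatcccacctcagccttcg
PARS2: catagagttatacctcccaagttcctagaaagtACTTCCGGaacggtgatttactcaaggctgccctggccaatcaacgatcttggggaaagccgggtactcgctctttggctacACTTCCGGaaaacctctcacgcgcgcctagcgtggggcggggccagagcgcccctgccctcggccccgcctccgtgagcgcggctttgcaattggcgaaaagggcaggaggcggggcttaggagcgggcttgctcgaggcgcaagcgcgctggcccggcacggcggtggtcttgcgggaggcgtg

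The comparison of each variant with WT asked how expression differs when cells depend, by design, on a variant SARS2. Most of the 33 genes did not pass the test in either variant, and the share called was near that over all genes tested (12.1% against 17.4% in R227Q, 6.06% against 7.97% in H448L). GFM1, the elongation factor that moves the ribosome along the mRNA, was lower in both R227Q and H448L cells. In R227Q cells MRRF, which splits ribosomes after termination, was lower too, and PARS2 and HARS2, the synthetases for proline and histidine, were higher. In H448L cells LARS2, the synthetase for leucine, was lower. No change among these calls was larger than 1.33-fold.

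In R227Q against WT, 4 of the 33 genes (12.1%) passed edgeR's quasi-likelihood test at an adjusted p under 0.05, against 17.4% of all genes tested. Of these, 2 were higher (against 7.5% of all genes) and 2 lower (against 9.91%), and 29 did not pass. In H448L against WT, 2 of 33 (6.06%) passed, against 7.97% of all genes, and 31 did not. Both were lower, against 4.99% of all genes lower and 2.97% higher. In H448L against R227Q 0 of the 33 passed, against 0.207% of all genes (0.0828% higher and 0.124% lower). DESeq2 and limma-voom also called 0 there. At an unadjusted p under 0.05 the counts were 7 of 33 in R227Q against WT, against 29.6% of all genes, 4 in H448L against WT (21.5%), and 2, LARS2 and MTIF3, in H448L against R227Q (10.9%). These shares lie near those over all genes and are no result about the set. The median log2 fold change of the 33 genes was −0.04 in R227Q and 0.01 in H448L against WT, beside 0.00 and 0.01 over all genes. Their median absolute log2 fold change was 0.06 and 0.09, beside 0.14 and 0.13. The 33 genes and all genes were not matched for read depth or precision, so this gap is no result about the set. Both comparisons use the same WT libraries, so their values for a gene are not independent.

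**Figure D1:**
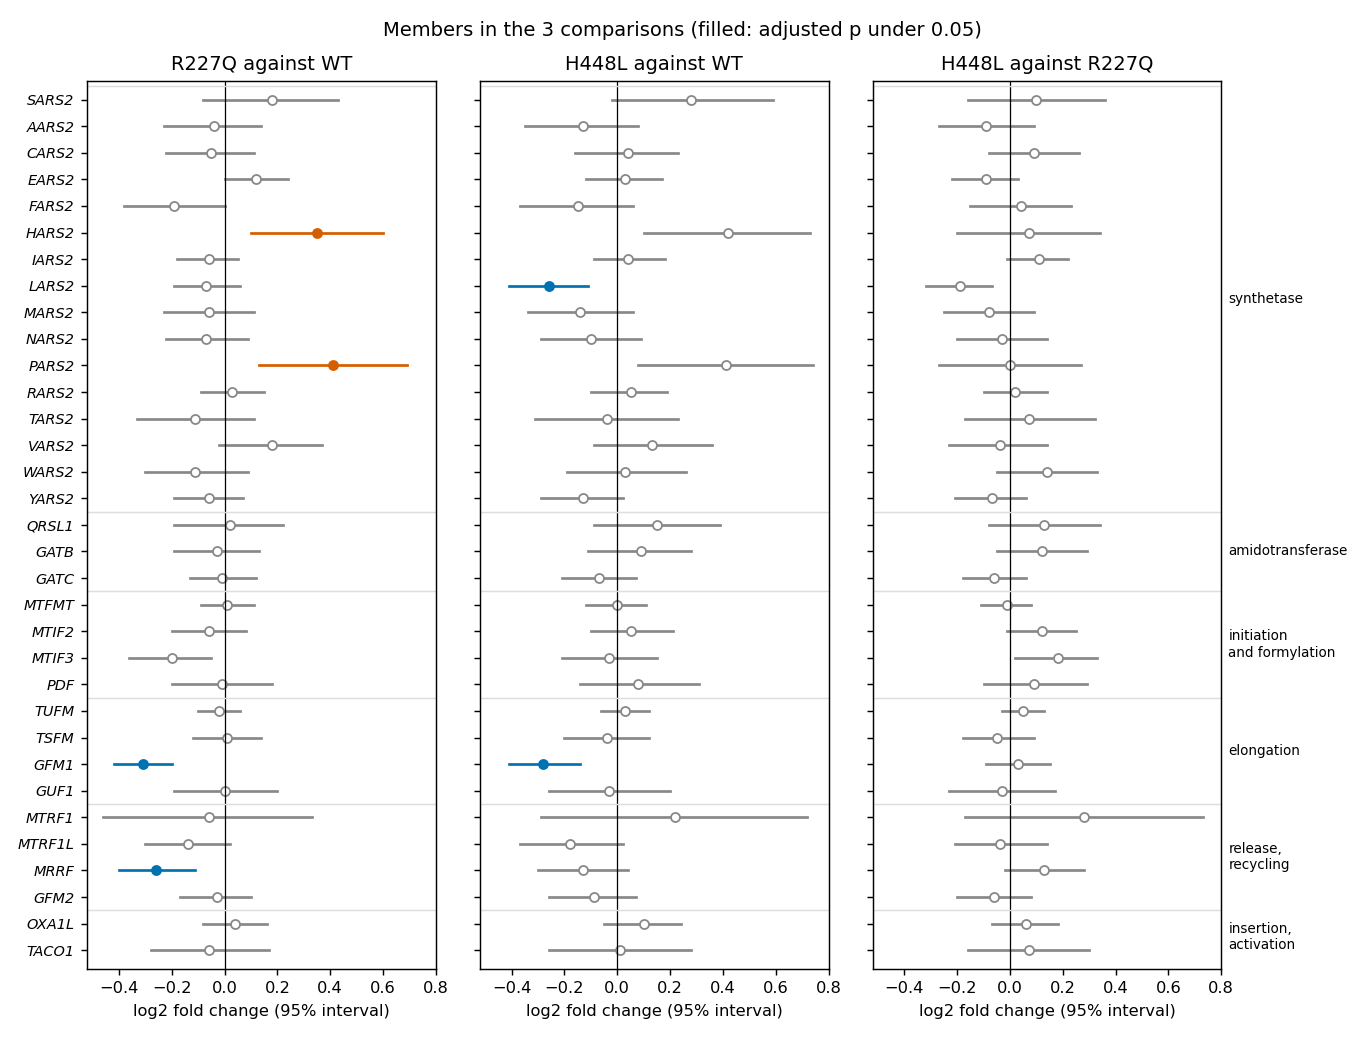
Log2 fold change of each of the 33 genes (points) with its 95% interval (lines) in R227Q against WT, H448L against WT and H448L against R227Q, with genes grouped by role; filled points passed at an adjusted p under 0.05. GFM1 is filled and below 0 in both comparisons with WT, and no point is filled in H448L against R227Q.

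SARS2 (ENSG00000104835) lies on chromosome 19 of GRCh38 at 38915266 to 38930896, minus strand. It had 8.68, 8.35 and 7.09 CPM in R227Q 1 to 3, 7.88, 8.68 and 7.93 CPM in H448L 1 to 3, and 7.70, 8.54 and 6.20 CPM in WT 1 to 3. The 3 groups overlapped, and the lowest library was WT 3. Neither variant passed against WT (log2 fold change 0.18 ± 0.12 (SE), 95% interval −0.08 to 0.43 for R227Q, and 0.28 ± 0.15, −0.02 to 0.59 for H448L; edgeR adjusted p = 0.38 and 0.29). SARS2 was itself 1.25-fold higher in SDKYMR than in 4LJFHN (0.32 ± 0.12, edgeR adjusted p = 0.039). The values do not separate the 3 possible origins of SARS2 transcripts (deleted locus, inducible copy, constitutive copy), and no source used here says whether those of the constitutive copy were counted. The level of SARS2 is therefore no check of the labels. SARS2 also overlaps AC011455.2 on its own strand by 15493 bases, 1492 of them exonic, and MRPS12, a mitochondrial ribosomal protein gene on the opposite strand, by 349 exonic bases. MRPS12 was lower in R227Q (−0.31 ± 0.06, edgeR adjusted p = 1.8e-04), a call lost without the submission term (−0.56, adjusted p = 0.28), and stood at −0.18 ± 0.07 in H448L (adjusted p = 0.1). No source used here says whether counting used strand, so reads in the shared bases cannot be assigned.

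**Figure D2:**
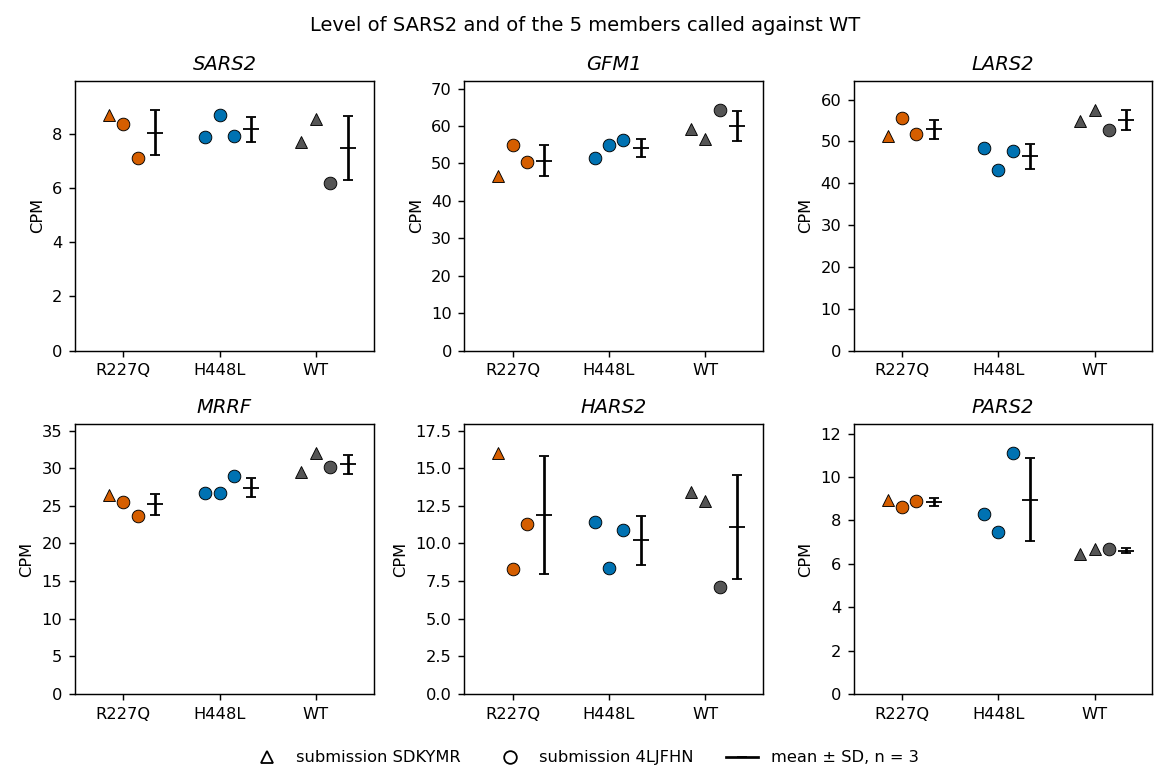
Level in CPM of SARS2 and of the 5 genes that passed against WT in at least 1 comparison, in each library (points, shaped by submission) with the group mean and SD (n = 3). All R227Q and H448L points of GFM1 lie below the 3 WT points, and in HARS2 the SDKYMR points lie above the 4LJFHN points of the same group.

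Among the 16 synthetases, 2 were higher in R227Q and none lower, with log2 fold changes from −0.19 to 0.41 (median −0.06). In H448L 1 was lower and none higher, with a range of −0.26 to 0.42 (median 0.03). PARS2 (ENSG00000162396, chromosome 1, 54756898 to 54764514), which loads proline, had 8.96, 8.61 and 8.91 CPM in R227Q 1 to 3, 8.28, 7.48 and 11.1 CPM in H448L 1 to 3, and 6.47, 6.68 and 6.69 CPM in WT 1 to 3. Every variant library lay above every WT library, and H448L 3 was the highest. The R227Q difference was 1.33-fold (log2 0.41 ± 0.14, 95% interval 0.13 to 0.69, edgeR adjusted p = 0.036). The H448L difference was of the same size but did not pass (0.41 ± 0.16, 0.08 to 0.74, adjusted p = 0.12). Within submissions R227Q differed from WT by 0.43 in SDKYMR and 0.37 in 4LJFHN on the log2 scale. The R227Q call was lost without R227Q 1 (0.38), R227Q 3 (0.40), WT 1 (0.39), WT 2 (0.42) or WT 3 (0.43).

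HARS2 (ENSG00000112855, chromosome 5, 140691426 to 140699318), which loads histidine, had 16.0, 8.30 and 11.3 CPM in R227Q 1 to 3, 11.4, 8.35 and 10.9 CPM in H448L 1 to 3, and 13.4, 12.8 and 7.10 CPM in WT 1 to 3. The groups overlapped, and libraries of SDKYMR were 1.77-fold above those of 4LJFHN (0.82 ± 0.12, edgeR adjusted p = 2.0e-06). With submission in the model, R227Q was 1.27-fold higher than WT (0.35 ± 0.12, 95% interval 0.10 to 0.60, edgeR adjusted p = 0.043), and H448L stood at 0.42 ± 0.15 (0.10 to 0.73, adjusted p = 0.096). Within SDKYMR, R227Q stood 0.28 above WT, and within 4LJFHN 0.44. The R227Q call was lost without R227Q 1 (0.47), R227Q 3 (0.27), WT 1 (0.39), WT 2 (0.34) or WT 3 (0.28), and without the submission term it was 0.07 (adjusted p = 0.91). The H448L value passed without R227Q 3 (0.53, adjusted p = 0.031) or without H448L 2 (0.55, adjusted p = 0.03). HARS2 shares 437 bases with HARS1, its cytosolic counterpart on the opposite strand, and 639 bases with ZMAT2 on its own strand. HARS1 did not pass in either variant (−0.05 ± 0.06 in R227Q, 0.03 ± 0.07 in H448L). ZMAT2 stood at −0.11 ± 0.05 in R227Q (adjusted p = 0.14) and was lower in H448L (−0.25 ± 0.06, adjusted p = 0.01), a call lost without R227Q 1 (−0.24) or WT 3 (−0.27).

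LARS2 (ENSG00000011376, chromosome 3, 45388506 to 45549421), which loads leucine, had 51.4, 55.5 and 51.7 CPM in R227Q 1 to 3, 48.4, 43.1 and 47.8 CPM in H448L 1 to 3, and 54.9, 57.5 and 52.7 CPM in WT 1 to 3. The H448L libraries were the 3 lowest, and R227Q overlapped WT. H448L was 1.2-fold lower than WT (−0.26 ± 0.07, 95% interval −0.41 to −0.11, edgeR adjusted p = 0.021), while R227Q stood at −0.07 ± 0.06 (−0.19 to 0.06, adjusted p = 0.5). Set against each other, H448L differed from R227Q by −0.19 ± 0.06 (−0.32 to −0.07), which did not pass over all genes (unadjusted p = 0.0044, adjusted p = 0.2), so a difference between the variants was not shown. The H448L call was lost without R227Q 1 (−0.21), H448L 2 (−0.21) or WT 3 (−0.36), and the R227Q value was 0.01 without R227Q 1.

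The other 13 synthetases, SARS2 among them, passed in neither variant. EARS2 (glutamate) was at 0.12 ± 0.06 in R227Q and 0.03 ± 0.07 in H448L (edgeR adjusted p = 0.17 and 0.7). Its 49.9, 47.0 and 48.0 CPM in R227Q 1 to 3 lay above the 45.1, 46.5 and 43.3 CPM of WT 1 to 3. FARS2 (phenylalanine) was at −0.19 ± 0.09 and −0.15 ± 0.11 (adjusted p = 0.16 and 0.44), and overlapped WT in both variants. YARS2 (tyrosine) was at −0.06 ± 0.06 in R227Q and −0.13 ± 0.08 in H448L (adjusted p = 0.57 and 0.32), and its 32.4, 32.3 and 32 CPM in H448L 1 to 3 lay below the 41.6, 43.4 and 35.2 CPM of WT 1 to 3. YARS2 was also 1.27-fold higher in SDKYMR, which holds WT 1 and WT 2 but no H448L library (edgeR adjusted p = 3.4e-05). IARS2 (isoleucine) had 63.8, 63.3 and 68.1 CPM in H448L 1 to 3, above the 50.1, 57.3 and 60.2 CPM of R227Q 1 to 3, and differed between the variants by 0.11 ± 0.06 (adjusted p = 0.52). IARS2 was 1.2-fold lower in SDKYMR, which holds R227Q 1 (edgeR adjusted p = 4.4e-04). The 8 synthetases not yet given, AARS2, CARS2, MARS2, NARS2, RARS2, TARS2, VARS2 and WARS2, lay between −0.11 and 0.18 in R227Q and between −0.14 and 0.13 in H448L.

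The cytosolic synthetases load the same amino acids for translation outside mitochondria. Of 20, 2 were higher and 3 lower in R227Q (25%), and 1 was higher and none lower in H448L (5%), beside 17.4% and 7.97% of all genes, with medians of −0.03 and 0.02. Without the submission term none was called in either variant, and within 4LJFHN alone the R227Q count was 1 higher and none lower. It was none higher and 2 lower without WT 3, and 1 of each without R227Q 1. Of 16 pairs of a mitochondrial and a cytosolic enzyme for one amino acid, none had both enzymes called in either variant. SARS1, the cytosolic seryl enzyme, stood at −0.12 ± 0.05 in R227Q and 0.02 ± 0.06 in H448L (edgeR adjusted p = 0.14 and 0.92), beside 0.18 and 0.28 for SARS2. WARS1 (tryptophan) was higher in R227Q (0.22 ± 0.05, adjusted p = 0.0018) and in H448L (0.24 ± 0.06, adjusted p = 0.0097), and its mitochondrial counterpart WARS2 stood at −0.11 and 0.03. Both WARS1 calls were lost without WT 3 (0.18 and 0.18). TARS1 (threonine) was lower in R227Q (−0.22 ± 0.04, adjusted p = 3.5e-04), as was RARS1 (arginine; −0.17 ± 0.05, adjusted p = 0.0081), whose call was lost without R227Q 1 (−0.11). In H448L TARS1 and RARS1 both stood at −0.12 (adjusted p = 0.13 and 0.19). AARS1 (alanine) was higher in R227Q (0.21 ± 0.05, adjusted p = 0.0037), a call lost without R227Q 1 (0.18) or WT 3 (0.22). FARSB, the beta subunit of the phenylalanine enzyme, was the third that fell (−0.14), and its call was lost without WT 2 (−0.11), WT 3 (−0.13), H448L 2 (−0.14) or any 1 of the R227Q libraries (−0.17 to −0.13). The single genes GARS1 and KARS1 encode both the mitochondrial and the cytosolic enzyme for glycine and lysine. GARS1 stood at −0.04 in R227Q and 0.01 in H448L, and KARS1 at −0.02 and −0.04 (adjusted p between 0.6 and 0.93).

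**Figure D3:**
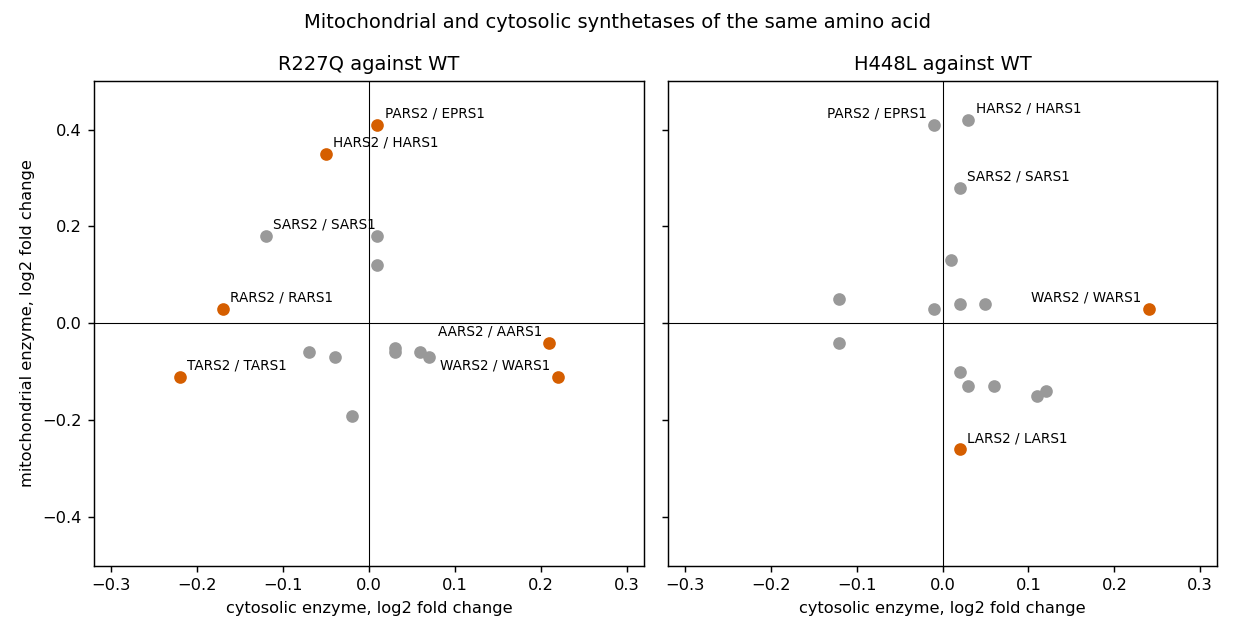
Log2 fold change of the cytosolic enzyme (horizontal) against that of the mitochondrial enzyme (vertical) for 16 pairs, in R227Q against WT and H448L against WT; EPRS1 is the partner of both EARS2 and PARS2. Coloured points have 1 enzyme called, and no pair has both called.

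The glutamine amidotransferase converts glutamate already loaded on the glutamine tRNA, since human mitochondria lack a glutaminyl synthetase of their own. None of its 3 subunits passed. QRSL1 stood at 0.02 ± 0.10 in R227Q and 0.15 ± 0.12 in H448L, GATB at −0.03 ± 0.08 and 0.09 ± 0.09, and GATC at −0.01 ± 0.06 and −0.07 ± 0.07. Their edgeR adjusted p-values lay between 0.5 and 0.95. GATC was 1.28-fold lower in SDKYMR than in 4LJFHN and GATB 1.25-fold higher, each more than its variant differences.

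Initiation genes did not pass either. MTFMT adds the formyl group to the initiator methionine and PDF removes it later, MTIF2 brings the initiator tRNA to the ribosome, and MTIF3 acts on the small subunit at the start. MTIF3 had 19.1, 27.7 and 27.9 CPM in R227Q 1 to 3, 28.3, 32.3 and 32.8 CPM in H448L 1 to 3, and 22.7, 24.0 and 30.2 CPM in WT 1 to 3. The H448L libraries lay above those of R227Q, and both overlapped WT. MTIF3 was 1.32-fold lower in SDKYMR, which holds R227Q 1 but no H448L library (edgeR adjusted p = 9.1e-05). With submission in the model, its log2 fold change was −0.20 ± 0.08 in R227Q (95% interval −0.36 to −0.05, edgeR adjusted p = 0.065) and −0.03 ± 0.09 in H448L (adjusted p = 0.89). H448L differed from R227Q by 0.18 ± 0.07 (unadjusted p = 0.025, adjusted p = 0.36). MTIF2 differed between the variants by 0.12 ± 0.06 (adjusted p = 0.53). MTFMT and PDF lay between −0.01 and 0.08 in both variants against WT.

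MTFMT and MTIF2 differed between the submissions in their raw levels. MTFMT had 62.3, 94.6 and 95.5 CPM in R227Q 1 to 3, 96.6, 93.8 and 93.6 CPM in H448L 1 to 3, and 59.7, 64.6 and 93.0 CPM in WT 1 to 3. Every H448L library lay above every WT library, but WT 3, of the same submission, had nearly the level of the H448L libraries, and the fitted difference was 0.00 ± 0.06 (95% interval −0.12 to 0.11). MTIF2 had 29.4, 53.2 and 45.3 CPM in R227Q 1 to 3, 50.3, 53.1 and 55.2 CPM in H448L 1 to 3, and 33.3, 32.7 and 48.2 CPM in WT 1 to 3. Its H448L libraries too lay above every WT library, and its fitted differences from WT were −0.06 ± 0.07 in R227Q and 0.05 ± 0.08 in H448L (edgeR adjusted p = 0.59 and 0.75).

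Of the 4 elongation factors, GFM1 was lower in both variants and the others passed in neither. GFM1 (ENSG00000168827, chromosome 3, 158644278 to 158692575) had 46.7, 55 and 50.4 CPM in R227Q 1 to 3, 51.5, 54.9 and 56.2 CPM in H448L 1 to 3, and 59.3, 56.5 and 64.3 CPM in WT 1 to 3. The means were 50.7 ± 4.15, 54.2 ± 2.42 and 60 ± 3.96 CPM in that order (SD, n = 3 each), and no variant library reached the lowest WT library. R227Q was 1.24-fold lower than WT (−0.31 ± 0.06, 95% interval −0.42 to −0.20, edgeR adjusted p = 1.9e-04) and H448L 1.21-fold lower (−0.28 ± 0.07, −0.41 to −0.14, adjusted p = 0.0065). The variants differed from each other by 0.03 ± 0.06 (adjusted p = 0.91). Within SDKYMR the R227Q difference was −0.32, and within 4LJFHN the differences were −0.30 for R227Q and −0.27 for H448L. The R227Q call was kept in 18 of 19 alternative settings and the H448L call in 17 of 19. The H448L call was lost without WT 3, the only WT library of that submission (−0.30, adjusted p = 0.17), and both were lost without the submission term (−0.27 and −0.20, adjusted p = 0.093 and 0.14). GFM1 overlaps LXN, of which 45 bases are exonic in both, and LXN had a mean level of 0.24 CPM.

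TUFM and TSFM form the cycle that delivers loaded tRNAs to the ribosome, TUFM as the carrier and TSFM as its recharging factor. TUFM had 254, 225 and 229 CPM in R227Q 1 to 3, 233, 236 and 243 CPM in H448L 1 to 3, and 250.2, 255 and 231 CPM in WT 1 to 3. Its difference from WT was −0.02 ± 0.04 in R227Q (95% interval −0.10 to 0.06) and 0.03 ± 0.05 in H448L (−0.06 to 0.12), among the narrowest intervals of the set. TSFM stood at 0.01 ± 0.06 and −0.04 ± 0.08. GUF1, the relative of bacterial elongation factor 4, stood at 0.00 ± 0.10 and −0.03 ± 0.11.

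Of the 4 release and recycling factors, MRRF was lower in R227Q and none passed in H448L. MRRF (ENSG00000148187, chromosome 9, 122264603 to 122331343) had 26.5, 25.5 and 23.7 CPM in R227Q 1 to 3, 26.7, 26.7 and 28.9 CPM in H448L 1 to 3, and 29.5, 32 and 30.1 CPM in WT 1 to 3. Both variants lay below WT in every library, with R227Q the lowest. R227Q was 1.2-fold lower than WT (−0.26 ± 0.07, 95% interval −0.40 to −0.11, edgeR adjusted p = 0.011), by −0.22 in SDKYMR and −0.30 in 4LJFHN. H448L stood at −0.13 ± 0.08 (−0.30 to 0.04, adjusted p = 0.4), and the variants differed by 0.13 ± 0.07 (adjusted p = 0.56). The R227Q call was lost without R227Q 1 (−0.30) or WT 3 (−0.22). MRRF shares 125 exonic bases with RBM18, which did not pass in either variant (0.12 and 0.13). MTRF1L, which ends translation at the standard stop codons, stood at −0.14 ± 0.08 in R227Q and −0.18 ± 0.10 in H448L (adjusted p = 0.24 and 0.3). Its 16.9, 17.0 and 18.0 CPM in H448L 1 to 3 lay below the 21.7, 22.5 and 19.3 CPM of WT 1 to 3. MTRF1L was also 1.19-fold higher in SDKYMR, which holds WT 1 and WT 2 but no H448L library (edgeR adjusted p = 0.0087). GFM2, the partner of MRRF in splitting ribosomes, stood at −0.03 ± 0.07 and −0.09 ± 0.08. MTRF1, the paralog of MTRF1L, had 1.86 to 4.07 CPM over the 9 libraries and the widest intervals (−0.46 to 0.33 in R227Q, −0.29 to 0.72 in H448L).

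OXA1L, which inserts newly made proteins into the inner membrane, stood at 0.04 ± 0.06 in R227Q and 0.10 ± 0.07 in H448L. TACO1, an activator of translation of the MT-CO1 mRNA, stood at −0.06 ± 0.11 and 0.01 ± 0.13. Neither passed.

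The intervals of genes that were not called describe library-to-library spread only. That spread may be technical, so the intervals do not bound a difference between separate cultures. SDKYMR holds no H448L library, so the H448L intervals also assume that the submission difference is the same in every group. Standard errors had a median of 0.08 in R227Q against WT and 0.09 in H448L against WT on the log2 scale. In R227Q the 95% intervals of all 29 genes that did not pass lay within 1.5-fold of WT in either direction. In H448L this held for 27 of 31, and the exceptions were HARS2, MTRF1, PARS2 and SARS2. Between H448L and R227Q it held for 32 of 33, MTRF1 being the exception. The share of intervals within 1.5-fold was not counted over all genes, so it is no result about the set. Member counts ran from 23 to 3284 per library.

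Most of these genes differed more between the submissions than between either variant and WT. In SDKYMR against 4LJFHN, 12 were higher and 8 lower (60.6%), against 43.8% of all genes (23% higher and 20.8% lower), and the median absolute log2 difference was 0.23 both for the 33 genes and for all genes tested. For 25 of the 33 the submission difference was larger than both variant differences. This count was not made over all genes, so it is no result about the set. All genes too had a smaller median absolute log2 fold change in R227Q (0.14) and H448L (0.13) against WT than between submissions. HARS2 (0.82), MTRF1 (0.81) and TARS2 (0.59) were highest in SDKYMR, and MTIF2 (−0.59), MTFMT (−0.54) and AARS2 (−0.50) lowest. The 8 exceptions were GFM1, LARS2, MARS2, MRRF, PARS2, QRSL1, RARS2 and WARS2. GFM1 had a submission difference of −0.11 that did not pass (edgeR adjusted p = 0.11).

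**Figure D4:**
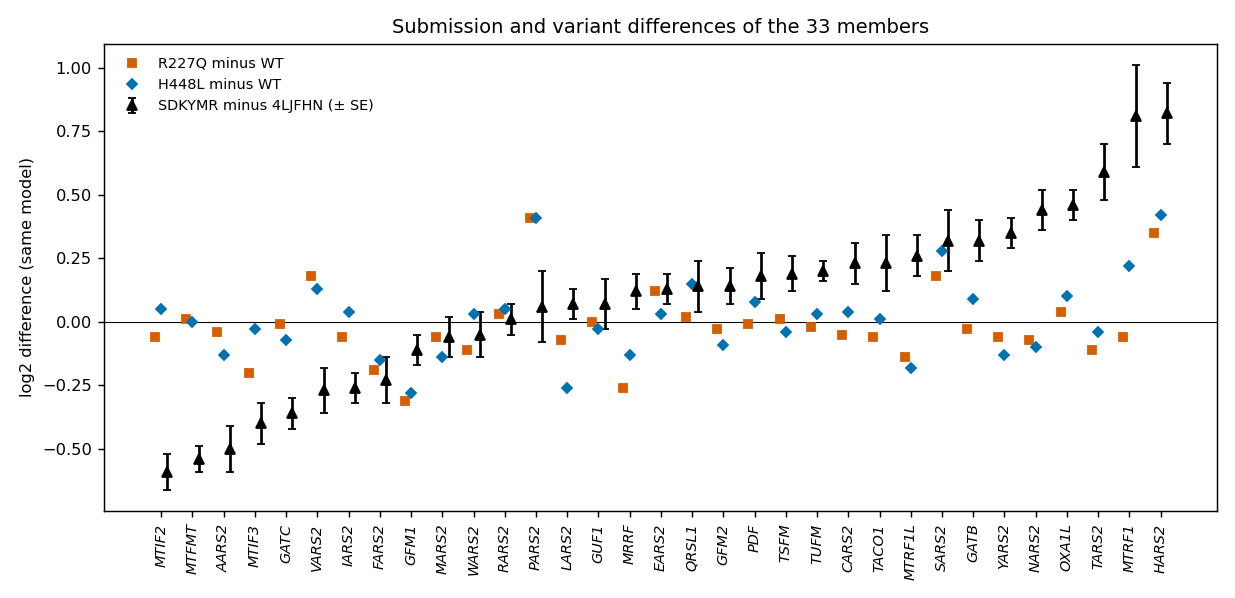
Log2 difference of each of the 33 genes between submissions (SDKYMR minus 4LJFHN, triangles with SE) beside R227Q minus WT (squares) and H448L minus WT (diamonds), all from one model and sorted by the submission difference. The triangles span −0.59 to 0.82, and the squares and diamonds stay between −0.31 and 0.42.

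Other genes were read from a list drawn broadly around mitochondrial translation. It holds rescue, ribosome-assembly and RNA-binding factors, and also genes such as COX14, COA3 and CCDC90B. Of its 31 genes, 30 were tested. None was higher, 5 were lower in R227Q (16.7%) and 1 in H448L (3.33%), beside 9.91% and 4.99% of all genes that were lower, with medians of −0.04 and −0.06. The R227Q count was 3 with DESeq2, 2 with upper-quartile factors, 3 within 4LJFHN alone and 0 without the submission term, and the H448L count was 0 within 4LJFHN alone, with only the 2 groups compared or without the submission term. DHX30, an RNA helicase of ribosome assembly, had 124, 120.1 and 116 CPM in R227Q 1 to 3, 121, 127 and 122 CPM in H448L 1 to 3, and 147, 141 and 139 CPM in WT 1 to 3. All variant libraries lay below all WT libraries, and both differences passed (−0.23 ± 0.04 and −0.18 ± 0.05, edgeR adjusted p = 3.3e-04 and 0.023). The H448L call was lost without R227Q 1 (−0.19), WT 1 (−0.17) or WT 3 (−0.17). MPV17L2, also a ribosome-assembly factor, was lower in R227Q (−0.39 ± 0.08, adjusted p = 7.9e-04), a call lost without WT 3 (−0.34), and stood at −0.23 ± 0.10 in H448L (adjusted p = 0.14). MRPL58, a rescue factor within the large subunit, was lower in R227Q (−0.17 ± 0.05, adjusted p = 0.022) and at −0.18 ± 0.06 in H448L (adjusted p = 0.085). Its R227Q call was lost without R227Q 1 (−0.12), R227Q 2 (−0.15), WT 2 (−0.15) or WT 3 (−0.22). DDX28, a helicase of the same assembly pathway, stood at −0.05 ± 0.07 in R227Q and −0.22 ± 0.08 in H448L (adjusted p = 0.66 and 0.094). The rest of those lower in R227Q were TRUB2 (−0.23) and C1QBP (−0.10), and these calls did not hold without WT 2 (−0.23 and −0.10), WT 3 (−0.12 and −0.11), R227Q 2 (−0.23 and −0.10) or R227Q 3 (−0.19 and −0.10). The C1QBP call was also lost without WT 1 (−0.11), R227Q 1 (−0.11) or H448L 2 (−0.10). The list's R227Q count was 2 or 3 without WT 2, WT 3 or any 1 of the R227Q libraries.

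The integrated stress response, which raises ATF4 and its targets when translation or mitochondria are disturbed, gives a contrast measured in the same libraries. Of 19 list genes tested, 15 were higher in R227Q (78.9%) and 10 in H448L (52.6%), beside 7.5% and 2.97% of all genes that were higher, and none was lower. The H448L count was 5 without WT 3, and without the submission term the counts were 6 in R227Q and 2 in H448L. ATF4 itself stood 0.14 above WT (log2) within SDKYMR and 0.12 within 4LJFHN in R227Q. In H448L ATF4 stood 0.12 above WT within 4LJFHN. It passed in 12 of the 19 alternative settings in R227Q and in 0 in H448L. PCK2, mitochondrial phosphoenolpyruvate carboxykinase, was at 0.72 ± 0.06 in R227Q and 0.62 ± 0.07 in H448L, DDIT3, the transcription factor CHOP, at 0.78 ± 0.06 and 0.65 ± 0.08, and ASNS, asparagine synthetase, at 0.55 ± 0.05 and 0.48 ± 0.06 (edgeR adjusted p at most 4.2e-06). Without the submission term the calls of DDIT3 were lost in R227Q (0.55, adjusted p = 0.24) and H448L (0.14, adjusted p = 0.71), and that of PCK2 in H448L (0.45, adjusted p = 0.073). With it, each of these log2 fold changes exceeds the 0.41 and 0.42 that bound the 33 genes. PCK2, DDIT3 and ASNS were named for having the smallest p in their list, so their size does not describe the list. Over the 19 list genes tested, the median log2 fold change was 0.33 in R227Q and 0.23 in H448L. The medians of the 33 genes were −0.04 and 0.01. The list medians lie below 0.41 and 0.42, but these bounds are the largest single values of the 33 genes and not medians. The products that mitochondrial translation makes are encoded in mitochondrial DNA, and of their 13 mRNAs 7 were higher and 2 lower in R227Q, against 3 higher and 1 lower in H448L (69.2% and 30.8% called, beside 17.4% and 7.97% of all genes). Without the submission term none was called in either variant, and MT-CO1 stood at 0.36 and 0.11 and MT-ND4 at 0.30 and 0.14. With it, MT-CO1 was at 0.50 ± 0.04 and 0.38 ± 0.05, MT-ND4 at 0.40 ± 0.04 and 0.35 ± 0.04, MT-ND2 at 0.27 ± 0.04 and 0.18 ± 0.05 and MT-ATP8 at −0.22 ± 0.05 and −0.26 ± 0.06. Both MT-ATP8 calls were lost without R227Q 1 (−0.12 and −0.20), and the H448L call of MT-ND2 without R227Q 1 (0.18), H448L 1 (0.12), WT 2 (0.17) or WT 3 (0.19). The R227Q count was 4 higher and 1 lower without WT 3, 4 higher and none lower without R227Q 1, and 4 higher and none lower within 4LJFHN alone. The H448L count was 2 higher and none lower without R227Q 1, within 4LJFHN alone or with only the 2 groups compared, 2 higher without H448L 1, WT 2 or WT 3, and 5 higher without H448L 3. These mRNAs have near-identical nuclear copies, so their counts are uncertain.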

How the data were processed

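Poly-A mRNA was sequenced from lysates of 9 Hap1 libraries by a commercial service, per the labels' protocols. For each submission the authors supplied 1 table that, per the file headers, holds unnormalized estimated counts and, beside them, CPM as deposited. CPM recomputed from each deposited count and library total matched within a relative tolerance of 6.3e-10 for counts of at least 10. Between 89.1% and 90.1% of the counts per library were whole numbers, and counts were rounded before testing. The submitters' processing notes name GRCh38. The aligner, counter, annotation and strand setting were not given in the sources used here. The 92 ERCC spike-in entries were left out. Gene positions came from GENCODE gene models and promoters from RefSeq.

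Genes were kept with filterByExpr by group (16908 genes), scaled with TMM factors (0.969 to 1.02) and tested with edgeR's quasi-likelihood test on group and submission over all 9 libraries (5 residual degrees of freedom, common biological coefficient of variation 2.96%), two-sided, with Benjamini-Hochberg adjustment over all genes. Standard errors were taken as log2 fold change over the square root of F. Values within 1 submission compare mean log2 CPM (prior count 2) and carry no test. Software was R 4.3.3 with edgeR 4.0.16, DESeq2 1.42.0 and limma 3.58.1, and the fit was tested on simulated data. Alternative settings were limma-voom, DESeq2, upper-quartile and RLE factors, no filter, a mean of at least 10 counts, no submission term, 4LJFHN alone, only the groups compared, a replicate block, and leaving out each library.

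The members, lists and tests were chosen with earlier results of these data known. Values in every library went to SARS2 and each member called in a comparison. Of members called in none, the 3 with the smallest p per comparison were named, as were the 3 such genes of each list, SARS1, GARS1 and KARS1. TUFM, MTFMT and the overlapping neighbours were named outside that rule, and the remaining members were given by value or range. Protein sequences were not used here.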

Additional observations from a re-analysis of the deposited data

How the results depend on the processing

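The number of the 33 genes called in R227Q against WT was 4 and became 1 with DESeq2, 0 without the submission term and 1 within 4LJFHN alone, and 1 to 4 when libraries were left out in turn. In H448L against WT it was 2 and became 1 with DESeq2, 0 without the submission term, 1 within 4LJFHN alone and 1 with only the 2 groups compared, and 0 to 3 when libraries were left out. In H448L against R227Q it was 0 in all 19 alternatives. Beyond the losses without single libraries, the MRRF call was lost with DESeq2 (adjusted p = 0.076), the PARS2 call with DESeq2 (0.21), the HARS2 call with DESeq2 (0.2) and limma-voom (0.084), and the LARS2 call with DESeq2 (0.051). Direction turned for LARS2 in R227Q within 4LJFHN alone (0.01) and without R227Q 1 (−0.14 to 0.01 over the left-out libraries), for HARS2 in H448L without the submission term (−0.18), and for SARS2 without the submission term (−0.01) and GFM1 without R227Q 3 (−0.01 to 0.07 over the left-out libraries) in H448L against R227Q. ATF4 turned to −0.04 in R227Q and −0.24 in H448L, and MT-ND2 to −0.25 in H448L, without the submission term. Over all genes, 2944 called in R227Q became 1546 with DESeq2, 312 without the submission term, 1138 within 4LJFHN alone, 1093 without WT 3 and 1278 without R227Q 1. The 1347 in H448L became 733, 147 and 734 in the first 3 of these, 756 with only the 2 groups, 253 without WT 3 and 771 without R227Q 1. The 35 in H448L against R227Q became 54 with DESeq2, 122 with no filter, 1 without the submission term, 22 with only the 2 groups and 4 to 91 when libraries were left out. The cause was not tested. Recomputing the counts and named genes of the other lists under the same alternatives was chosen after seeing the data.

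Whether replicate numbers pair the libraries could not be decided. Deviations from group means correlated at 0.66, −0.56 and 0.66 between same-numbered R227Q and WT libraries. The pairs at 0.66 share a submission and the pair at −0.56 does not. Differently numbered libraries of a shared submission gave 0.67 (WT 2 with R227Q 1, WT 3 with R227Q 2). After the submission term the same-numbered pairs stood at −0.40, 0.12 and −0.38. The differently numbered pairs WT 2 with R227Q 1 and WT 3 with R227Q 2 stood at −0.39. WT 3 and R227Q 1, which share neither number nor submission, stood at 1.00, a value that the fit forces. The correlations after the submission term therefore cannot decide on pairing. With the replicate block and the submission term, 3 genes were called in R227Q, 1 in H448L and 0 between the variants. The block ended the HARS2 call in R227Q (0.33, adjusted p = 0.062) and the LARS2 call in H448L (−0.28, adjusted p = 0.054). 1 count was worth up to 0.101 CPM, and MTRF1, at 23 counts in its lowest library, was the least precise member.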

Other observations

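Among the genes of mitochondrial translation outside the 33, METTL17 and MTERF3 differed most plainly by submission. METTL17, a factor of small-subunit assembly, had 66.1, 25.7 and 24.6 CPM in R227Q 1 to 3, 26.5, 25.7 and 31.5 CPM in H448L 1 to 3, and 64.0, 62.7 and 23.6 CPM in WT 1 to 3, so the 3 libraries of SDKYMR stood above the 6 of 4LJFHN. MTERF3, a mitochondrial transcription terminator relative that acts in ribosome assembly, had 13.5, 2.93 and 4.05 CPM in R227Q 1 to 3, 4.01, 4.80 and 6.06 CPM in H448L 1 to 3, and 13.9, 14 and 3.71 CPM in WT 1 to 3. With submission in the model neither passed edgeR's test against WT (METTL17 0.06 ± 0.06 in R227Q and 0.20 ± 0.09 in H448L, adjusted p = 0.6 and 0.17; MTERF3 −0.06 ± 0.13 and 0.40 ± 0.19, adjusted p = 0.81 and 0.22). Both genes were chosen after their values were seen.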
